A study of Mus musculus with 12 samples.

Results

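The liver response 1 day after TCPOBOP was taken over both genotypes at once: the 2 day 1 arrays, 1 pool of YAP KO and 1 pool of WT liver RNA, formed 1 group and were set against the 4 day 0 arrays, 2 of YAP KO and 2 of WT livers. These are 6 of the 12 arrays of the series, and the other 6 are from day 2. The arrays were chosen by their labelled day, and 14102 genes were tested on them. All mice were females of 8 to 12 weeks that carried floxed Yap1 alleles. YAP KO mice received the virus AAV8-TBG-Cre, and WT mice received AAV8-TBG-GFP, so the controls were floxed and virus-treated too. The mice of days 1 and 2 were given TCPOBOP at 3 mg/kg in corn oil by gavage 10 days after the virus. The day 0 mice had the virus and no gavage.

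What the comparison can show is set by this design. The TBG promoter is active in hepatocytes, so other liver cells kept Yap1. Each day 1 array is a pool of an unstated number of mice, which carries no spread between animals, and the labels do not say from how many mice the day 0 RNA came. TCPOBOP, its oil vehicle, the gavage, the day of harvest and the pooling cannot be told apart, since they all separate the same arrays. A gene counts as shared here when it moved on both pools against the spread of all 6 arrays, with any genotype difference counted as spread. In whole liver RNA, fewer cells of a type and less RNA per cell cannot be told apart.

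TCPOBOP is an agonist of the mouse constitutive androstane receptor (CAR, gene Nr1i3), a nuclear receptor of hepatocytes. Once in the nucleus, CAR pairs with the retinoid X receptor and activates genes of drug oxidation, conjugation and export, of which Cyp2b10 is the classical mouse example. In mouse liver TCPOBOP is also a direct mitogen, which drives resting hepatocytes into the cell cycle without prior tissue loss. YAP, the protein of Yap1, is held back by the Hippo kinases and otherwise enters the nucleus to switch on growth genes together with TEAD factors.

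Yap1, the deleted gene, had a signal of 449.6 in the YAP KO pool and 999 in the WT pool, against 632 and 596 in YAP KO and 1234 and 1293 in WT livers at day 0. Its YAP KO signals lay below all WT signals at both days, and between the days it was not called (-0.38 ± 0.41, adjusted p = 0.623). Whether its probes lie in the deleted exons was not tested. The median signal of the 12 arrays ranged from 231.6 to 277. The mean Cre spike-in signal was 22560 and 23135 on the WT day 0 arrays and 29579 on the WT pool. On YAP KO arrays it was 33217 and 30707 at day 0 and 31357 on the pool. The 200 highest probe sets had a mean log2 signal of 14.91 and 14.93 on the WT day 0 arrays and 15.17 on the WT pool. On YAP KO arrays it was 15.27 and 15.05 at day 0 and 15.22 on the pool. The part of these differences in the day 1 values was not tested. The median log2 change over all genes was -0.07, or -0.05 after quantile normalization and 0.01 after centring each array on its median. Hepatocyte genes such as Alb (-0.01), Ttr (0.05) and Hnf4a (0.07) were not called, and no more were any of the 7 measured genes listed to check the tissue, though after quantile normalization Cyp2e1 (-0.33) and Cps1 (-0.60) of these were called lower.

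Of the 14102 genes, 1258 passed limma's test at an adjusted p under 0.05, which is 8.92% of them. There were 651 genes higher at day 1 (4.62%) and 607 lower (4.3%). After centring each array on its median the split was 680 higher (4.82%) and 358 lower (2.54%), so the share of higher calls was 65.5% in place of 51.7%. After quantile normalization 4.4% of the genes were higher and 5.01% lower. Every called gene had both pools outside the range of the 4 day 0 arrays, on the same side, as had 33.9% of all genes tested. From this it follows that each changed in the same direction in both genotypes, so the shared direction is no separate result. At least 2-fold changes in both genotypes were seen for 256 of the higher and 194 of the lower genes. Leaving out a pool sets 1 array against 4 and mixes genotype with day, so fewer calls are expected from the lower precision alone. A call lost without a pool, here and below, does not show that the change rests on that pool. Without the YAP KO pool 1.18% of all genes were called higher and 1.61% lower, and without the WT pool 1.35% and 1.81%. The shares were 4.24% and 2.91% without YAP KO day 0 replicate 1, 5.81% and 6.22% without YAP KO day 0 replicate 2, 3.17% and 2.18% without WT day 0 replicate 1, and 3.12% and 2.27% without WT day 0 replicate 2. A fit of group means to all 12 arrays called 7.42% higher and 7.77% lower. In the text, log2 changes are the mean log2(signal + 16) of the 2 pools minus that of the 4 day 0 arrays, with limma's standard error. Folds are that change as a ratio and understate low genes, so only the log2 change is given where an array of the lower group read under 64.

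**Figure D1:**
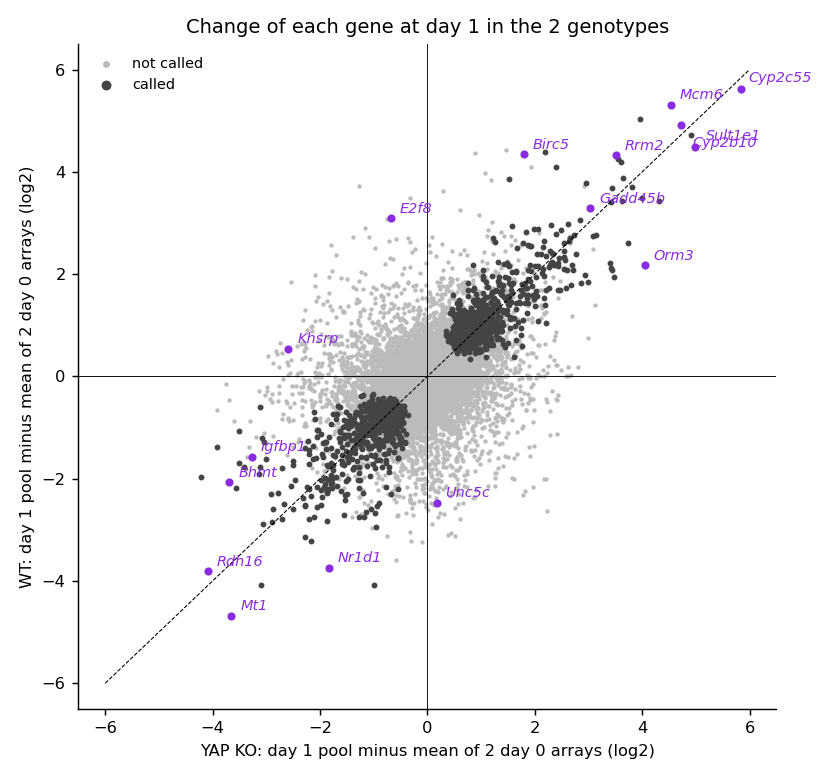
Log2 change of each of the 14102 genes at day 1 in YAP KO livers (horizontal axis) and in WT livers (vertical axis), each as the pool minus the mean of that genotype's 2 day 0 arrays. Dark points are the 1258 called genes, all to the upper right or lower left of the origin; purple points are named genes, among which E2f8, Khsrp and Unc5c lie to its upper left or lower right.

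The gene lists differed in how many members moved. They were chosen with earlier results of these data known, so the shares describe the lists and test nothing. Against a background of 4.62% higher and 4.3% lower genes, the shares called higher were 55.9% of 34 proteasome subunits, 53.3% of 30 CAR target and phase I genes, 51.4% of 35 phase II genes, 42.1% of 19 NRF2 targets and 34.7% of 49 DNA replication genes. For the 31 heat shock and immediate early genes the share called higher was 35.5%. The shares called lower were 42.9% of 7 metallothionein and zinc transporter genes and 32% of 25 periportal genes. They were 31.6% of 19 retinoid and steroid genes, 26.3% of 19 bile acid genes and 21.9% of 32 fatty acid oxidation genes. Of the 20 measured YAP/TAZ targets 1 was called, Gadd45a, and the median of that list was 0.02.

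**Figure D2:**
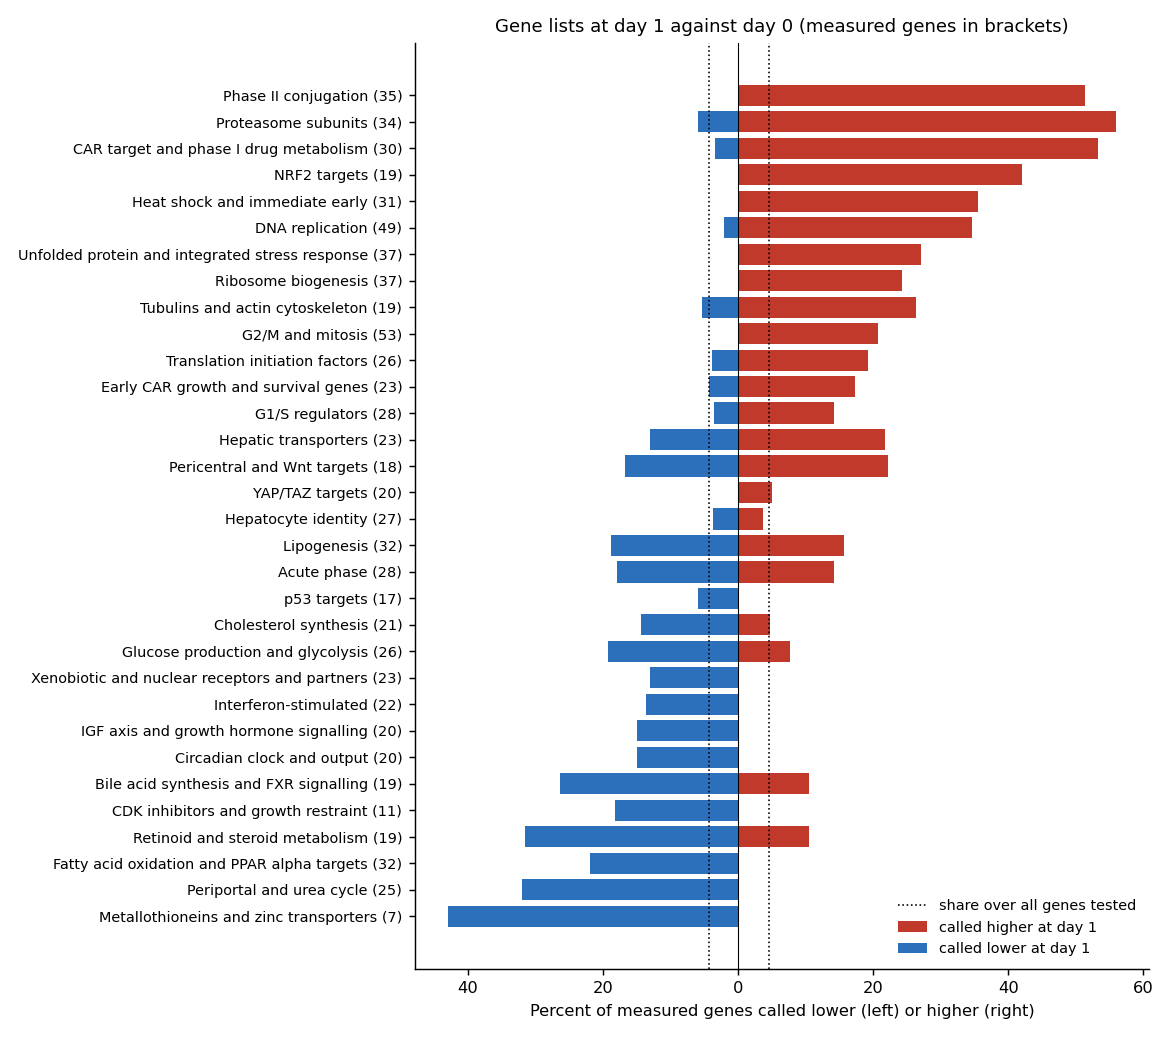
Percent of the measured genes of each list called higher (red, to the right) or lower (blue, to the left) at day 1, with the number measured in brackets. Dotted lines mark the shares over all 14102 genes, 4.62% higher and 4.3% lower; phase II, proteasome and CAR target genes extend farthest to the right and the 7 metallothionein and zinc transporter genes farthest to the left.

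Cyp2c55, a drug-oxidizing P450, had the largest rise of the 14102 genes. Of 30 measured CAR target and phase I genes 16 rose and 1 fell, with a median log2 change of 0.88, and 13 of these 17 calls were kept without the YAP KO pool and 12 without the WT pool. Cyp2b10 had 48492 in the YAP KO pool and 50355 in the WT pool, against 1771 and 1867 in YAP KO and 1583 and 1719 in WT livers at day 0. The pools were almost equal and stood far above every day 0 array. The rise was 28.3-fold (4.82 ± 0.14, adjusted p = 1.36e-07). Cyp2c55, which CAR also induces, had 32901 in the YAP KO pool and 30797 in the WT pool, against 699 and 446 in YAP KO and 574 and 654 in WT livers at day 0, a 53-fold rise (5.73 ± 0.19, adjusted p = 2.83e-07). Ces2a, a carboxylesterase that cleaves ester drugs, had 70279 in the YAP KO pool and 67384 in the WT pool, against 7347 and 5766 in YAP KO and 4710.2 and 5798 in WT livers at day 0, with no overlap (11.8-fold, 3.56 ± 0.18, adjusted p = 9.13e-06). Alas1, the first and rate-limiting enzyme of the haem synthesis that P450 enzymes need, had 32569 in the YAP KO pool and 25189 in the WT pool, against 3460.0 and 4842 in YAP KO and 7915 and 6138 in WT livers at day 0. Its day 0 signals were lower in YAP KO than in WT livers and its pools the other way round, so that the log2 change was 2.99 in YAP KO and 1.85 in WT livers. Over both genotypes Alas1 rose 5.35-fold (2.42 ± 0.29, adjusted p = 0.00143).

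Other phase I genes moved by less. Ephx1, the microsomal epoxide hydrolase, rose 3.94-fold, and the flavin monooxygenase gene Fmo5 rose 3.7-fold. The P450 genes Cyp3a13, Cyp2c29 and Cyp1a2 rose 3.63-fold, 3.44-fold and 2.31-fold. Aldh1a1, which oxidizes retinaldehyde, rose 1.93-fold (0.95 ± 0.14, adjusted p = 0.0032), a call lost without the YAP KO pool (adjusted p = 0.0525) and without the WT pool (adjusted p = 0.0505). Cyp3a11, a target that CAR shares with the pregnane X receptor, had 72610.2 in the YAP KO pool and 74549.9 in the WT pool, against 59771 and 52215 in YAP KO and 42699 and 42608 in WT livers at day 0. The pools lay above all day 0 arrays, yet the change of 0.59 ± 0.17 missed the threshold (adjusted p = 0.0602). It passed after quantile normalization (adjusted p = 0.00844) and in the fit to 12 arrays (adjusted p = 0.00933). The highest signals on the 2 pool arrays were 83520 (YAP KO) and 84392 (WT). Cyp2c38 fell: it had 1732 in the YAP KO pool and 1196 in the WT pool, against 4628 and 3902 in YAP KO and 5963 and 4061 in WT livers at day 0 (3.15-fold lower, -1.66 ± 0.21, adjusted p = 0.00156). Probe sets of the Cyp2b, Cyp2c and Cyp3a families can cross-read close relatives, so a value may hold more than its named gene.

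**Figure D3:**
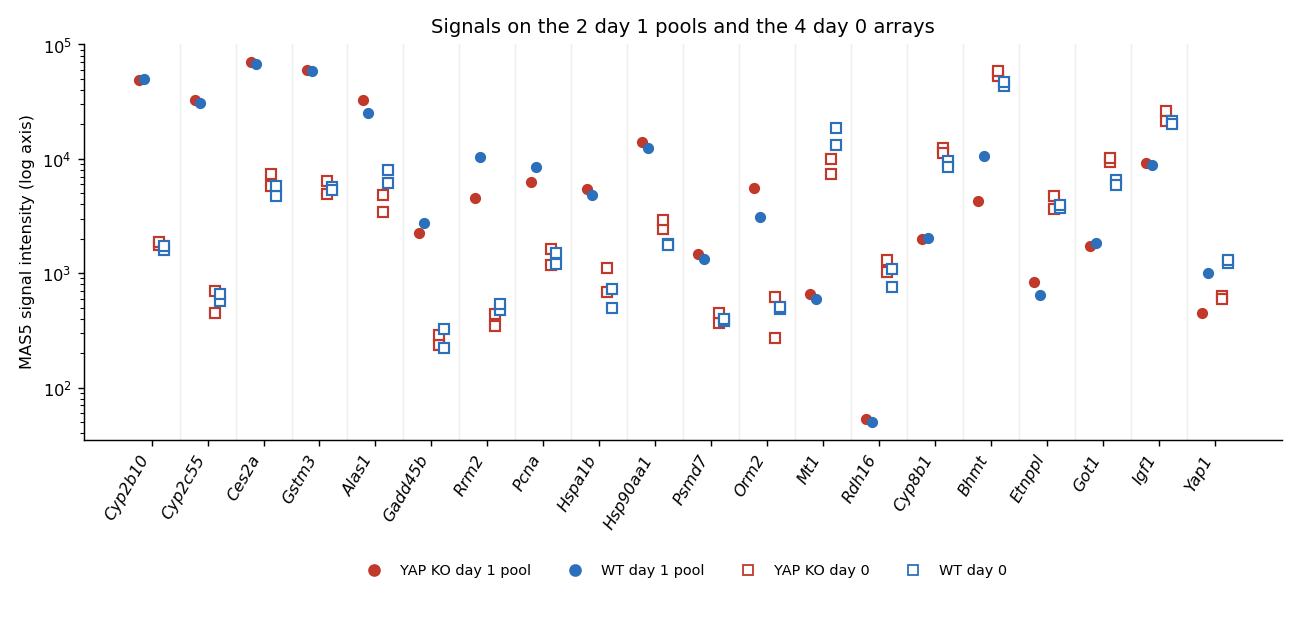
MAS5 signal (log axis) of 20 named genes on each of the 6 arrays, with the day 1 pools as filled circles and the day 0 arrays as open squares, YAP KO in red and WT in blue. For every gene shown but Yap1 the 2 circles lie outside the range of the 4 squares; Rdh16 is near 50 on both pools.

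Of 35 measured phase II genes, which conjugate drugs and hormones, 18 rose and none fell, with a median of 0.80, and 10 of the 18 calls were kept without the YAP KO pool and 10 without the WT pool. Sult1e1, the oestrogen sulfotransferase, read 1472 in the YAP KO pool and 1278 in the WT pool, against 39.7 and 24.1 in YAP KO and 38.5 and 45.7 in WT livers at day 0. It was near the bottom of the scale on all day 0 arrays and clearly measured on both pools (4.73 ± 0.53, adjusted p = 0.000825). Gstm3, a mu-class glutathione transferase, had 59879.6 in the YAP KO pool and 58951 in the WT pool, against 6446 and 4887 in YAP KO and 5684 and 5395 in WT livers at day 0. Its log2 change was 3.41 in YAP KO and 3.41 in WT livers (10.6-fold over both, 3.41 ± 0.15, adjusted p = 3.36e-06). Gstm2 rose 5.43-fold, the sulfotransferase Sult1d1 4.6-fold, and Gsta4, which conjugates lipid peroxidation products, 4.31-fold. Gstm probe sets too may read relatives of the named gene. Outside the list, the sulfotransferase Sult2a2 had 17485 in the YAP KO pool and 20473 in the WT pool, against 407 and 1831 in YAP KO and 1598 and 2196 in WT livers at day 0, with 1 YAP KO array well below the other day 0 arrays (14.7-fold, 3.87 ± 0.59, adjusted p = 0.00778).

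Transporter genes went both ways. Of 23 measured transporter genes 5 rose and 3 fell, with a median of -0.21, and of these 8 calls 5 were kept without the YAP KO pool and 4 without the WT pool. The number that fell was 6 both without YAP KO day 0 replicate 2 and after quantile normalization. All 5 that rose were ABC exporters, and the 3 that fell were the uptake carriers Slc22a7 and Slco2b1 (-0.78) and the sterol exporter subunit Abcg8 (-0.85). Abcc4, which exports conjugates to the blood, had 1274 in the YAP KO pool and 1241 in the WT pool, against 205 and 157 in YAP KO and 166 and 175 in WT livers at day 0 (6.68-fold, 2.74 ± 0.26, adjusted p = 0.000286). The canalicular exporter Abcc2 rose 2.91-fold and the basolateral Abcc3 2.8-fold, both called whichever array was left out. Abcb1a, a P-glycoprotein gene, rose 4.01-fold, with adjusted p = 0.00504 over 6 arrays, 0.0694 without the YAP KO pool and 0.0684 without the WT pool. Slc22a7, an organic anion carrier, had 275 in the YAP KO pool and 519.9 in the WT pool, against 1113 and 1037 in YAP KO and 1179.9 and 1406 in WT livers at day 0 (3.02-fold lower, -1.59 ± 0.25, adjusted p = 0.00454).

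The receptors themselves did not rise. Nr1i3 (CAR) had 2662 in the YAP KO pool and 2318 in the WT pool, against 2871 and 2629.5 in YAP KO and 3587 and 2519 in WT livers at day 0, and the ranges overlapped (-0.21 ± 0.17, adjusted p = 0.514). Nr1i2, the pregnane X receptor, was likewise not called (0.17 ± 0.20, adjusted p = 0.661). Of 23 measured receptors and partners none rose and 3 fell, of which none was kept without the YAP KO pool and 1 without the WT pool or without either WT day 0 array, while 5 fell without YAP KO day 0 replicate 2. Ppara, the fasting-related fatty acid receptor, had 884 in the YAP KO pool and 752 in the WT pool, against 2411 and 1452 in YAP KO and 2578 and 3362 in WT livers at day 0. Both pools lay below all day 0 arrays (2.84-fold lower, -1.51 ± 0.28, adjusted p = 0.0123), with adjusted p = 0.068 without the YAP KO pool and 0.0991 without the WT pool. Of 19 measured NRF2 targets, antioxidant genes that partly stand in the phase II and transporter lists, 8 rose and none fell, with a median of 0.54. Of these 8 calls 3 were kept when either pool was left out and 5 without WT day 0 replicate 2. They include Aox1 (1.46), Txnrd1 (0.80), which encodes thioredoxin reductase, and Gsr (0.61), which encodes glutathione reductase.

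Of 49 measured DNA replication genes 17 rose and 1 fell, the median was 0.95, and 41 of the 49 had a change above 0 in both YAP KO and WT livers. For changes above 0 in both genotypes the share over all genes is not given here. The list median was 0.75 in YAP KO and 0.87 in WT livers. Some of the 18 calls were lost when either pool was left out, where 1 array stands against 4. Rrm2, the regulated subunit of the ribonucleotide reductase that makes DNA precursors, had 4586 in the YAP KO pool and 10394 in the WT pool, against 343 and 436 in YAP KO and 473 and 536 in WT livers at day 0. The WT pool was the higher of the pools, and both stood far above day 0 (15.1-fold, 3.92 ± 0.30, adjusted p = 0.000139). Pcna, the sliding clamp of DNA polymerases, had 6331 in the YAP KO pool and 8468 in the WT pool, against 1626 and 1185 in YAP KO and 1489 and 1192 in WT livers at day 0 (5.33-fold, 2.41 ± 0.19, adjusted p = 0.000108).

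The MCM helicase, which unwinds DNA at origins, was measured by its subunits. Mcm6 read 1079 in the YAP KO pool and 1954 in the WT pool, against 41.6 and 22.7 in YAP KO and 51.5 and 20.5 in WT livers at day 0. It was low on all day 0 arrays and high on both pools (4.92 ± 0.59, adjusted p = 0.00113), and without the WT pool its adjusted p was 0.0555. Mcm7 had 2674 in the YAP KO pool and 3891 in the WT pool, against 973 and 916 in YAP KO and 872 and 773 in WT livers at day 0 (3.62-fold, 1.85 ± 0.18, adjusted p = 0.000399), and was called whichever array was left out. Mcm5 rose 2.47-fold (1.31 ± 0.17, adjusted p = 0.0016), also called whichever array was left out. Mcm2 rose 5.14-fold (adjusted p = 0.00234, or 0.0532 without the WT pool) and Mcm3 4.19-fold (adjusted p = 0.0123, 0.0932 without the YAP KO pool and 0.134 without the WT pool). Mcm4 was not called (1.02 ± 0.57). Mcm10, an initiation factor outside the helicase ring, was the 1 gene of the list that fell (-0.85 ± 0.21, adjusted p = 0.0334), but the mean of its probe sets gave -0.01 and its call was lost without either pool or either WT day 0 array.

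E2F factors bind sites in start regions of many replication genes, so the letters TTTCGCGC, TTTGGCGC and TTTCCCGC were searched on both strands in RefSeq windows of GRCm38.p6 that run from 250 bases before to 50 after the start. At least 1 match stood in 1.84% of all 32851 windows, in 3.51% of the 11293 tested genes with a window, and in 39% of the 41 replication genes with a window (16 genes). Among the 15 replication genes called higher with a window, 6 held a match, namely Mcm3, Mcm5, Mcm6, Mcm7, Pola1 and Uhrf1. That is 40%, near the 39% of the whole list. Genes of the list that were not called, such as Cdt1, Clspn and Dnmt1, held matches too. The windows of Mcm6 and Mcm7 each hold 2 matches when overlapping ones are counted once. They are shown 5′ to 3′ on the gene's strand, with the matches on either strand in capitals.
Mcm6 (chr1:128359656-128359955, minus strand): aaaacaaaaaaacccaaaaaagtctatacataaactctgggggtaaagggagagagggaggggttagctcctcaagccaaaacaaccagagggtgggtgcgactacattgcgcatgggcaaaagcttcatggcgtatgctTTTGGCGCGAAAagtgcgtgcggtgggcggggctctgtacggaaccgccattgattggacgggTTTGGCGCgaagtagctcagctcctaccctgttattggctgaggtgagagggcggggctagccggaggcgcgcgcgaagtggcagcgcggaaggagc
Mcm7 (chr5:138171834-138172133, minus strand): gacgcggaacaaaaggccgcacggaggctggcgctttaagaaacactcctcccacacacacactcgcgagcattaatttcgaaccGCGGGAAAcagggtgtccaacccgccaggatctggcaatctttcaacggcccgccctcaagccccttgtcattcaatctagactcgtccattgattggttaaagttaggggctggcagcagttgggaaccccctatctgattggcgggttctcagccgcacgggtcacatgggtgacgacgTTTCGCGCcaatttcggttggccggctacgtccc
A match is a description of these letters and not a measured binding site. Genes of the list without a match, such as Rrm2, Pcna and Mcm2, had log2 changes of 3.92, 2.41 and 2.36.

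Of 53 measured G2/M genes, which act in mitosis, 11 rose and none fell, with a median of 0.81, but all 11 calls were lost without the WT pool, and 5 were kept without the YAP KO pool. Without YAP KO day 0 replicate 2, 3 of the list fell. The median was 0.31 in YAP KO and 1.37 in WT livers, and 44 of the 53 rose more, or fell less, in WT. This count rests on 1 pool per genotype, so the members are not replicates of a genotype difference. The share of all genes that rose more in WT is not given here. For 14 of the 53 the genotype difference had an unadjusted p under 0.05, against 6.72% of all genes. None passed adjustment (smallest adjusted p in the list 0.148), so a difference between genotypes was not shown for any 1 of them. Cdk1, the kinase that starts mitosis, had 920.2 in the YAP KO pool and 1766 in the WT pool, against 77.5 and 47 in YAP KO and 75.9 and 86.4 in WT livers at day 0. The WT pool was the higher one, and both pools were above day 0 (3.90 ± 0.47, adjusted p = 0.00111), with adjusted p = 0.0521 without the WT pool. Ccnb2, a B-type cyclin that activates Cdk1, had 318 in the YAP KO pool and 1031 in the WT pool, against 44.9 and 50.2 in YAP KO and 50.7 and 40.7 in WT livers at day 0 (3.24 ± 0.67, adjusted p = 0.0163, 0.0515 without the YAP KO pool and 0.242 without the WT pool). Top2a, which untangles sister chromosomes, had 550.3 in the YAP KO pool and 1756 in the WT pool, against 184 and 163 in YAP KO and 178 and 258 in WT livers at day 0. It was called (4.79-fold, 2.26 ± 0.43, adjusted p = 0.0111), a call lost without the WT pool and for the mean of its probe sets. Mki67, the gene of the proliferation marker Ki-67, had 377 in the YAP KO pool and 1032 in the WT pool, against 72 and 219 in YAP KO and 213 and 146 in WT livers at day 0, with no overlap, and narrowly missed the threshold (1.95 ± 0.53, adjusted p = 0.0509), which it passed after quantile normalization (adjusted p = 0.0421).

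**Figure D4:**
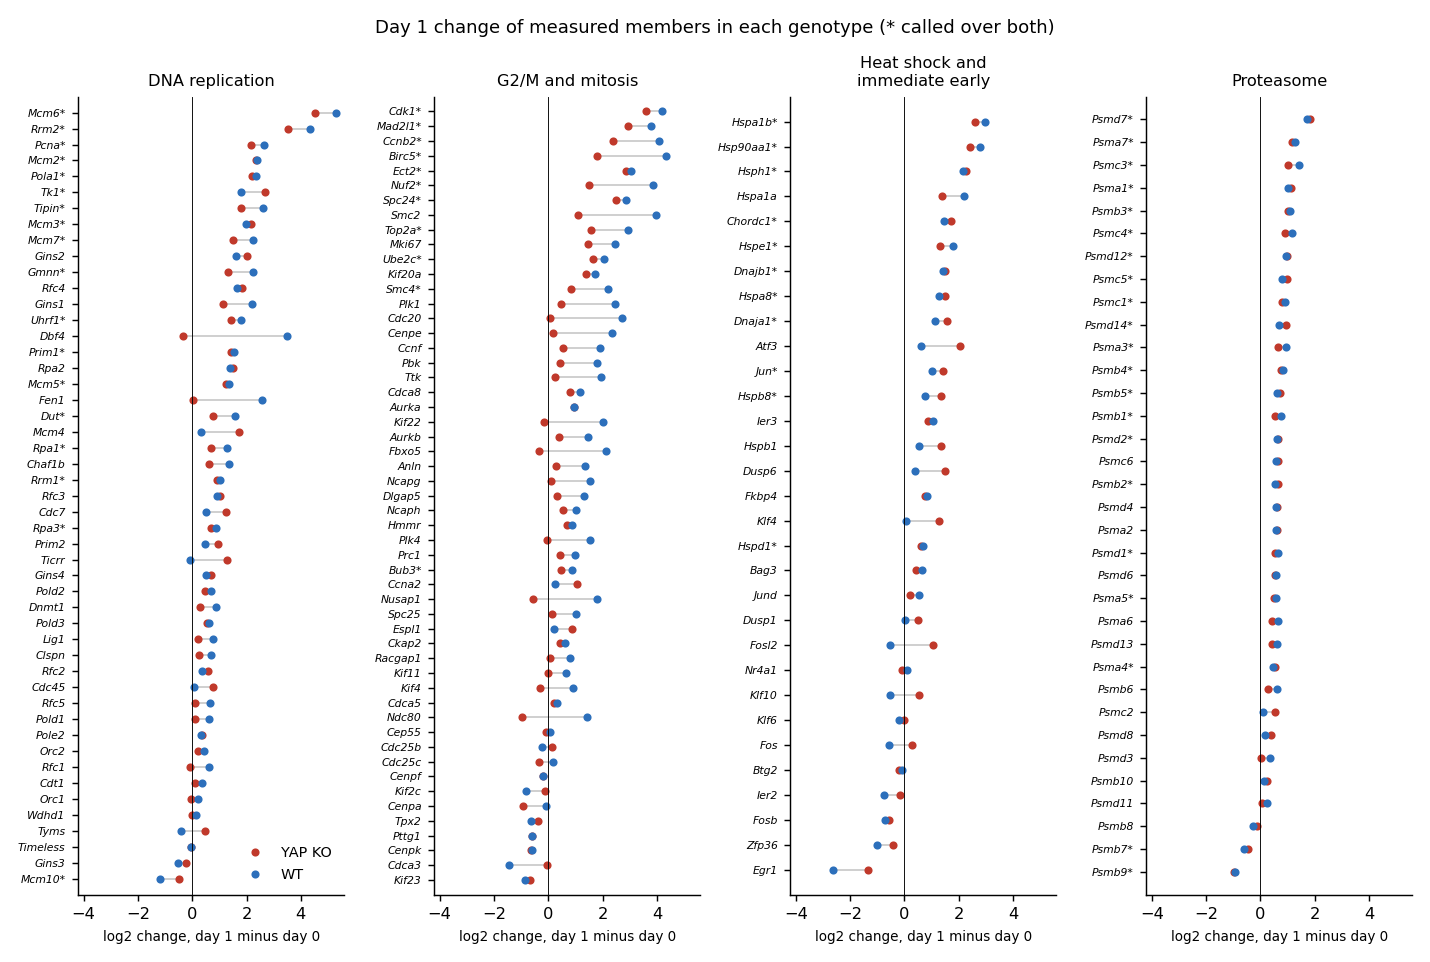
Log2 change at day 1 of every measured member of 4 lists in YAP KO (red) and WT (blue) livers, joined by a line, with an asterisk for genes called over both genotypes. The WT point lies farther to the right in 44 of the 53 G2/M genes and in 32 of the 49 DNA replication genes; each genotype has 1 pool, and the share over all genes is not given.

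Among genes that link CAR to growth, Gadd45b was the clearest. This stress and growth gene is a CAR target in mice and a partner of CAR. It had 2244 in the YAP KO pool and 2770.3 in the WT pool, against 237 and 288 in YAP KO and 327 and 222 in WT livers at day 0. The 4 day 0 arrays lay close together and both pools far above them (8.91-fold, 3.16 ± 0.22, adjusted p = 6.87e-05). Gadd45a rose as well, to 737 in the YAP KO pool and 971 in the WT pool, against 40 and 71.7 in YAP KO and 180.0 and 248 in WT livers at day 0. Its day 0 signals were lower in YAP KO than in WT livers, and its call (2.77 ± 0.61, adjusted p = 0.0229) was lost without the YAP KO pool (adjusted p = 0.137) or the WT pool (adjusted p = 0.183). Myc, the growth-promoting transcription factor, had 808 in the YAP KO pool and 663 in the WT pool, against 72.2 and 132 in YAP KO and 100.4 and 303 in WT livers at day 0 (5.04-fold, 2.33 ± 0.51, adjusted p = 0.0221). Tnfrsf12a, the receptor of the cytokine TWEAK, rose 5.15-fold (2.36 ± 0.44, adjusted p = 0.0109), but was not called for the mean of its probe sets. The calls of both were lost without a pool: adjusted p = 0.192 for Myc and 0.079 for Tnfrsf12a without the YAP KO pool, and 0.128 and 0.146 without the WT pool. Of the 23 measured genes of this list 4 rose and 1, Igf1, fell, with a median of 0.03, and 2 of these 5 calls were kept when either pool was left out.

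Of 28 measured G1/S regulators 4 rose and 1 fell, with a median of 0.35, and none of these 5 calls was kept when either pool was left out, whereas 7 rose without YAP KO day 0 replicate 2. Ccnd1, the D cyclin that opens G1, had 8235 in the YAP KO pool and 8056 in the WT pool, against 3603 and 2546 in YAP KO and 5446 and 5154 in WT livers at day 0. The pools lay above all day 0 arrays, but the YAP KO day 0 signals were lower than those of WT, and the change was not called (1.02 ± 0.28, adjusted p = 0.0533). Cdk4, the kinase partner of D cyclins, rose 2.04-fold (1.03 ± 0.23, adjusted p = 0.0237), with adjusted p = 0.149 without the YAP KO pool, 0.132 without the WT pool, and 0.0554 and 0.0508 without WT day 0 replicate 1 or 2. Of 11 CDK inhibitors and growth restraint genes 2 fell, the antiproliferative genes Btg1 (-0.78) and Tob1 (-0.71), and neither call was kept without a pool. Cdkn1a, the p21 inhibitor, was not called (-0.20 ± 0.31).

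Of 31 measured heat shock and immediate early genes 11 rose and none fell, with a median of 0.80, or 1.04 in YAP KO and 0.61 in WT livers. Of the 11 calls 7 were kept without the YAP KO pool and 10 without the WT pool, while 15 rose and 2 fell without YAP KO day 0 replicate 2. With the exception of Jun, the genes that rose encode chaperones or their helpers, while the immediate early genes Fos (-0.14 ± 0.37) and Egr1 (-1.99 ± 0.69) were not called. Hspa1b, the stress-inducible Hsp70, had 5448 in the YAP KO pool and 4846 in the WT pool, against 685 and 1116 in YAP KO and 499 and 727 in WT livers at day 0. No day 0 array came near the pools (6.94-fold, 2.80 ± 0.27, adjusted p = 0.000341). Its twin gene Hspa1a may share probes. Hsp90aa1, the inducible Hsp90, had 14140.4 in the YAP KO pool and 12431 in the WT pool, against 2434 and 2924 in YAP KO and 1811 and 1777 in WT livers at day 0 (6.02-fold, 2.59 ± 0.21, adjusted p = 0.000139).

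Hsph1, a nucleotide exchange factor of Hsp70, and Chordc1, a co-chaperone of Hsp90, are given with their start regions. Hsph1 had 3516 in the YAP KO pool and 2021 in the WT pool, against 701 and 716 in YAP KO and 646 and 291 in WT livers at day 0. WT day 0 replicate 2 was the lowest array, and the call (4.69-fold, 2.23 ± 0.37, adjusted p = 0.00838) was lost without the YAP KO pool (adjusted p = 0.0784). Chordc1 had 2411 in the YAP KO pool and 1834 in the WT pool, against 639 and 809 in YAP KO and 748 and 591 in WT livers at day 0 (2.99-fold, 1.58 ± 0.19, adjusted p = 0.00113), and was called whichever array was left out. A heat shock element, the site of heat shock factor 1, was searched as GAA, TTC and GAA, or TTC, GAA and TTC, each 2 bases apart, which are each other's reverse complements. It stood in 0.603% of all windows, in 0.593% of the tested genes with a window and in 4 of the 26 list genes with a window: Hsph1, Chordc1, Hspe1 and Hspd1, all of them called higher. The windows of Hspe1 and Hspd1 overlap, since these neighbours start in opposite directions. The elements of Hsph1 and Chordc1 are in capitals.
Hsph1 (chr5:149636266-149636565, minus strand): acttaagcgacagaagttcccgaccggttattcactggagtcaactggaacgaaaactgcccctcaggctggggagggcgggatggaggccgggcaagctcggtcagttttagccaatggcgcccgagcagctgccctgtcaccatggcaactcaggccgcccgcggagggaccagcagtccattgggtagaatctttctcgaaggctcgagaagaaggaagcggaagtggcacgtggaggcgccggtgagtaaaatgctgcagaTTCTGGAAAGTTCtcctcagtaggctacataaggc
Chordc1 (chr9:18292017-18292316, plus strand): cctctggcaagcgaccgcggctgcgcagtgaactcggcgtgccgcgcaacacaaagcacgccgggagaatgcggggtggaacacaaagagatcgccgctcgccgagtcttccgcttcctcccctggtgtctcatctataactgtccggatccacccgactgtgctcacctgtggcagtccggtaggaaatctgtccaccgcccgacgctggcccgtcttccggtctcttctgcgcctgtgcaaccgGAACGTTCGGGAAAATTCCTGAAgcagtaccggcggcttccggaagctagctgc
Hspe1, the mitochondrial co-chaperonin, rose 2.95-fold (1.56 ± 0.18, adjusted p = 0.000961). Dnajb1, an Hsp40, and Hspa8, the constitutive Hsc70, rose 2.74-fold and 2.62-fold. The windows of Hspa1b and Dnajb1 held no match.

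Of 34 measured proteasome subunits 19 rose and 2 fell, by small amounts, with a median of 0.59, or 0.62 in YAP KO and 0.60 in WT livers. A change above 0 in both genotypes was seen for 31, with no share over all genes given here. Of these 21 calls 3 were kept without the YAP KO pool, 6 without the WT pool and 13 without either WT day 0 array. Psmd7, a lid subunit of the regulatory particle, had 1465 in the YAP KO pool and 1332 in the WT pool, against 366 and 445 in YAP KO and 385 and 396 in WT livers at day 0 (3.42-fold, 1.77 ± 0.18, adjusted p = 0.000468). Psma7, of the outer core ring, rose 2.33-fold and Psmc3, a regulatory ATPase, 2.31-fold. Psmb9, which replaces a core protease subunit in the immunoproteasome, fell (-0.96 ± 0.20, adjusted p = 0.0175; 0.103 without the YAP KO pool and 0.106 without the WT pool). Psmb7, a catalytic subunit of the standard core, had 5408 in the YAP KO pool and 4937 in the WT pool, against 7531 and 7205 in YAP KO and 8035 and 6864 in WT livers at day 0 (-0.52 ± 0.14, adjusted p = 0.0459). The call of Psmb7 was lost when any array but YAP KO day 0 replicate 2 was left out (adjusted p up to 0.268, without the WT pool) and after centring on the median.

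Genes of protein folding in the endoplasmic reticulum, ribosome assembly and translation also rose in part. Of 37 unfolded protein and integrated stress response genes 10 rose and none fell, with a median of 0.24, and 1 of these calls was kept without the YAP KO pool and 2 without the WT pool. Manf, a secreted survival factor of the stressed reticulum, had 7575 in the YAP KO pool and 5987 in the WT pool, against 2918 and 3079 in YAP KO and 1696 and 1411 in WT livers at day 0. At day 0 the WT arrays were below the YAP KO arrays (3.11-fold, 1.64 ± 0.32, adjusted p = 0.0152; 0.114 without the YAP KO pool and 0.0605 without the WT pool). Hsp90b1, the Hsp90 of the reticulum, rose 2.09-fold (1.06 ± 0.22, adjusted p = 0.0161; 0.141 and 0.0988 without the YAP KO and the WT pool). Of 37 ribosome biogenesis genes 9 rose and none fell, with a median of 0.55, and 2 of the 9 calls were kept when either pool was left out and 5 or 6 without WT day 0 replicate 1 or 2. Nop56, a core protein of the RNPs that methylate ribosomal RNA, had 1572 in the YAP KO pool and 1608 in the WT pool, against 801 and 515 in YAP KO and 589 and 599 in WT livers at day 0 (2.53-fold, 1.34 ± 0.20, adjusted p = 0.00329). Of 26 translation initiation factors 5 rose, among them Eif4a1 (0.96), and Eif4b fell (-0.93), with none of these 6 calls kept without the YAP KO pool, 1 without the WT pool and 3 without either WT day 0 array. Of 19 tubulin and actin genes 5 rose and 1 fell, of which 2 were kept without the YAP KO pool and 3 without the WT pool. Tubb4b, a beta-tubulin, had 15697 in the YAP KO pool and 17290.5 in the WT pool, against 4497 and 3742 in YAP KO and 3744 and 2326 in WT livers at day 0 (4.72-fold, 2.24 ± 0.23, adjusted p = 0.000559).

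Mt1 and Mt2 encode metallothioneins, small proteins that bind zinc and copper, and both fell. Mt1 had 663 in the YAP KO pool and 591 in the WT pool, against 7300.4 and 9929.9 in YAP KO and 13097 and 18454 in WT livers at day 0. The pools were close to each other and far below all day 0 signals (17.9-fold lower, -4.17 ± 0.31, adjusted p = 0.000179). Mt2 had 1351 in the YAP KO pool and 1115 in the WT pool, against 2719 and 3608 in YAP KO and 3759.9 and 8074 in WT livers at day 0 (3.35-fold lower, -1.75 ± 0.36, adjusted p = 0.0214), with adjusted p = 0.0877 without the YAP KO pool and 0.126 without the WT pool. Of the 7 measured metallothionein and zinc transporter genes Slc30a10, a member of the SLC30 carrier family, also fell (-0.70), and the median was -0.17. Of these 3 calls 1, that of Mt1, was kept when either pool was left out. Metal response elements, the sites of the zinc-sensing factor MTF1, were searched as TGCACNC and TGCGCNC on both strands. At least 3 matches stood in 1.31% of all windows and in 2.2% of the tested genes with a window. Mt1 held 3 and Mt2 held 4, shown in capitals.
Mt1 (chr8:94178839-94179138, plus strand): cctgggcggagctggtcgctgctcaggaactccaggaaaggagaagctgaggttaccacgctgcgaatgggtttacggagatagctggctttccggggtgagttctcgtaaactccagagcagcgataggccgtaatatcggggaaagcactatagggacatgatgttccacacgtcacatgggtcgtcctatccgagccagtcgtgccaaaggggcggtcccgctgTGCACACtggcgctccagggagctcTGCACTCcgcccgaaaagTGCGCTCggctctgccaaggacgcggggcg
Mt2 (chr8:94172368-94172667, plus strand): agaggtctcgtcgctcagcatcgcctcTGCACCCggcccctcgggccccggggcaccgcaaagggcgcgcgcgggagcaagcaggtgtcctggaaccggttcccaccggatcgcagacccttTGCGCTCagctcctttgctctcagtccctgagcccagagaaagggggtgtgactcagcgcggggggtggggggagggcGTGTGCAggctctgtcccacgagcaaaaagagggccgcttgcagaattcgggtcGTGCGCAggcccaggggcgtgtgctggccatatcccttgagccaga
At least 1 match stood in 25.7% of all windows and in 38.1% of the tested genes with a window. All 5 list genes with a window held a match, among them Slc30a1 and Slc39a8, which were not called. The probe sets of Mt1 and Mt2 may read each other's RNA.

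Among genes of retinoid and steroid conversion more fell than rose. Of 19 measured genes 2 rose and 6 fell, with a median of -0.44, and of these 8 calls 4 were kept when either pool was left out. Rdh16, a short-chain dehydrogenase that oxidizes retinol and steroids, read 52.8 in the YAP KO pool and 49.9 in the WT pool, against 1016 and 1304 in YAP KO and 1079.8 and 764 in WT livers at day 0. Both pools were near the bottom of the scale (-3.95 ± 0.27, adjusted p = 5.59e-05). Its relative Rdh9 had 374 in the YAP KO pool and 334 in the WT pool, against 1874 and 1880.5 in YAP KO and 3376 and 2790.2 in WT livers at day 0 (6.54-fold lower, -2.71 ± 0.25, adjusted p = 0.000238), and Rdh probe sets may cross-read. Hsd17b6, of the same enzyme superfamily, fell 3.42-fold (-1.78 ± 0.16, adjusted p = 0.000268). Cyp26b1, which degrades retinoic acid, read 283 in the YAP KO pool and 48.6 in the WT pool, against 561 and 603 in YAP KO and 832 and 1398 in WT livers at day 0, a fall (-2.54 ± 0.58, adjusted p = 0.0296) that was lost without the WT pool (adjusted p = 0.139) or either WT day 0 array (0.076 and 0.0604).

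Bile acid genes split. Of 19 measured genes 2 rose and 5 fell, with a median of -0.26, of which 3 calls were kept without the YAP KO pool, 5 without the WT pool and 4 without either WT day 0 array. Cyp8b1, the sterol 12-alpha-hydroxylase that sets the share of cholic acid, had 2002 in the YAP KO pool and 2014 in the WT pool, against 12363 and 11149.7 in YAP KO and 9554 and 8404 in WT livers at day 0. The pools were nearly equal, far below every day 0 array (5.08-fold lower, -2.34 ± 0.17, adjusted p = 8.58e-05). Hsd3b7, of the same pathway, fell 2.51-fold (-1.32 ± 0.18, adjusted p = 0.00253), and Klb, the co-receptor for the gut hormone FGF15, fell 2.48-fold (adjusted p = 0.00415, or 0.0551 without the YAP KO pool). Cyp39a1, an oxysterol 7-alpha-hydroxylase, rose 3.24-fold (1.70 ± 0.18, adjusted p = 0.0006). Cyp7a1, the rate-limiting enzyme of the classical route, had 3675 in the YAP KO pool and 2986 in the WT pool, against 5962 and 4612 in YAP KO and 10849.7 and 4339.5 in WT livers at day 0, and was not called (-0.85 ± 0.33, adjusted p = 0.159).

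Fatty acid oxidation genes had falls and no rises. None of 32 measured PPAR alpha targets and fatty acid oxidation genes rose and 7 fell (median -0.46), of which 2 were kept when either pool was left out and 4 or 5 without WT day 0 replicate 1 or 2; after centring on the median 4 fell. Acot2, a mitochondrial acyl-CoA thioesterase, had 156 in the YAP KO pool and 121 in the WT pool, against 577 and 455 in YAP KO and 735 and 545 in WT livers at day 0 (3.82-fold lower, -1.93 ± 0.28, adjusted p = 0.00315), while the mean of its probe sets was not called (adjusted p = 0.13). Cpt1a, which admits fatty acids to mitochondria, fell 2.6-fold (-1.38 ± 0.26, adjusted p = 0.0119), a call lost without the YAP KO pool (adjusted p = 0.132) and for the mean of its probe sets (0.156). Cyp4a14, a fatty acid omega-hydroxylase, had 3407 in the YAP KO pool and 2607 in the WT pool, against 9162 and 7402 in YAP KO and 12244 and 6562 in WT livers at day 0 (2.87-fold lower, -1.52 ± 0.24, adjusted p = 0.00493; 0.0711 without the WT pool).

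Lipogenic genes went both ways: of 32 measured, 5 rose and 6 fell (median -0.20), of which 3 calls were kept without the YAP KO pool and 5 without the WT pool. Thrsp, a thyroid hormone-responsive lipogenic regulator, had 41883 in the YAP KO pool and 45849 in the WT pool, against 12706 and 10218 in YAP KO and 13985 and 20558 in WT livers at day 0 (3.15-fold, 1.66 ± 0.24, adjusted p = 0.0032), and Pnpla3, a lipid droplet protein, rose 3.36-fold (1.75 ± 0.25, adjusted p = 0.00276). Of 21 cholesterol synthesis genes 1 rose and 3 fell (median -0.39), of which 2 were kept without the YAP KO pool and 1 without the WT pool. The number that fell was 8 without YAP KO day 0 replicate 2 and 6 after quantile normalization. Hmgcs1, the cytosolic HMG-CoA synthase, had 15372 in the YAP KO pool and 14571 in the WT pool, against 42516 and 29532 in YAP KO and 38213 and 32701 in WT livers at day 0 (2.36-fold lower, -1.24 ± 0.17, adjusted p = 0.00232). Insig2, which retains the sterol sensor of the pathway in the endoplasmic reticulum, was the 1 gene that rose (1.59 ± 0.33, adjusted p = 0.0204; 0.109 without the YAP KO pool and 0.104 without the WT pool).

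Of 26 glucose production and glycolysis genes 2 rose and 5 fell (median -0.39), with 1 of these calls kept without the YAP KO pool and 2 without the WT pool, and 8 fell after quantile normalization. Got1, the cytosolic aspartate aminotransferase, had 1713 in the YAP KO pool and 1845 in the WT pool, against 9399 and 10171 in YAP KO and 6471 and 5876 in WT livers at day 0. Its day 0 signals were higher in YAP KO than in WT livers, and both pools were below all of them (4.34-fold lower, -2.12 ± 0.23, adjusted p = 0.000606). Slc2a2, the hepatic glucose transporter GLUT2, fell 2.14-fold (-1.09 ± 0.23, adjusted p = 0.0171; 0.147 without the YAP KO pool and 0.0991 without the WT pool). G6pc, the last enzyme of glucose release, had 5262 in the YAP KO pool and 5379 in the WT pool, against 16744 and 19908 in YAP KO and 3281 and 2979 in WT livers at day 0. The pools were alike and the day 0 arrays were not: the change was -1.79 in YAP KO and 0.78 in WT livers, and over both it was not called (-0.51 ± 0.79, adjusted p = 0.754).

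Periportal genes had falls and no rises. None of 25 measured periportal and urea cycle genes rose and 8 fell, with a median of -0.49; 14 fell after quantile normalization. Of the 8 calls 4 were kept without the YAP KO pool and 6 without the WT pool. Etnppl, which degrades phosphoethanolamine, had 838 in the YAP KO pool and 645 in the WT pool, against 4719 and 3612 in YAP KO and 3709 and 3959.9 in WT livers at day 0 (5.32-fold lower, -2.41 ± 0.17, adjusted p = 7.1e-05). Cps1, the entry enzyme of the urea cycle, was not called (-0.50 ± 0.18, adjusted p = 0.125). Pericentral and Wnt target genes went both ways, with 4 of 18 higher and 3 lower (median -0.14), 5 lower after quantile normalization, and 5 of the 7 calls kept when either pool was left out. Lect2, a secreted Wnt target in mouse liver, had 12638 in the YAP KO pool and 11477 in the WT pool, against 3141 and 3814 in YAP KO and 4356 and 3579 in WT livers at day 0 (3.25-fold, 1.70 ± 0.16, adjusted p = 0.000286). Slc1a2, the glutamate transporter of the pericentral rim, had 351 in the YAP KO pool and 375 in the WT pool, against 1246 and 1366 in YAP KO and 1729.9 and 1847 in WT livers at day 0 (4.08-fold lower, -2.03 ± 0.20, adjusted p = 0.000321). Oat, which turns ornithine to glutamate there, fell 2.8-fold, and Gulo, of vitamin C synthesis in mice, fell 2.59-fold.

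The growth hormone axis fell in 3 of 20 measured genes, with a median of -0.29. Igf1, the hormone that liver sends to other tissues, had 9201 in the YAP KO pool and 8807 in the WT pool, against 26094 and 21337 in YAP KO and 21235 and 20107 in WT livers at day 0 (2.45-fold lower, -1.29 ± 0.15, adjusted p = 0.000957). Igfals, the acid-labile subunit that carries IGF1 in blood, had 1495 in the YAP KO pool and 1344 in the WT pool, against 5931 and 5387 in YAP KO and 6214 and 4698 in WT livers at day 0 (3.87-fold lower, -1.95 ± 0.16, adjusted p = 0.000126). Both were called whichever array was left out, whereas Ghr, the growth hormone receptor (2.13-fold lower, -1.09 ± 0.20, adjusted p = 0.0101), was lost without the YAP KO pool (adjusted p = 0.103) or the WT pool (adjusted p = 0.0799). Igfbp1, a fasting-responsive IGF binding protein, had 1298 in the YAP KO pool and 578 in the WT pool, against 18268 and 8793 in YAP KO and 1188 and 2555 in WT livers at day 0. Its 2 YAP KO day 0 arrays stood far above all others, the groups overlapped, and it was not called (-2.42 ± 0.98, adjusted p = 0.18).

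Of 27 hepatocyte identity genes 1 rose and 1 fell (3.7% each), near the 4.62% higher and 4.3% lower over all genes. Both were members of the C/EBP family of liver transcription factors. After quantile normalization 9 fell, where 5.01% of all genes were lower. Cebpb had 8853 in the YAP KO pool and 6332 in the WT pool, against 3132 and 4666 in YAP KO and 2769 and 3387 in WT livers at day 0 (2.18-fold higher, 1.13 ± 0.22, adjusted p = 0.013). It lost its call without the YAP KO pool and for the mean of its probe sets. Cebpa had 5635 in the YAP KO pool and 4250.3 in the WT pool, against 9250.4 and 10396 in YAP KO and 13265 and 11176 in WT livers at day 0 (2.23-fold lower, -1.16 ± 0.18, adjusted p = 0.00485), and lost its call without the WT pool (adjusted p = 0.0766). Of 28 acute phase genes 4 rose and 5 fell, with a median of 0.07, and of these 9 calls 4 were kept when either pool was left out, while 9 fell after quantile normalization. Orm2, an orosomucoid of plasma, had 5613 in the YAP KO pool and 3129 in the WT pool, against 269 and 616 in YAP KO and 492 and 503 in WT livers at day 0 (9.02-fold, 3.17 ± 0.33, adjusted p = 0.000687), on probes that may read other Orm genes. Serpina3n, a plasma protease inhibitor, had 901 in the YAP KO pool and 805 in the WT pool, against 5463 and 4873 in YAP KO and 5086 and 4802 in WT livers at day 0 (5.84-fold lower, -2.55 ± 0.14, adjusted p = 1.41e-05).

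Clock genes were mostly not called: 3 of 20 fell and none rose, with a median of -0.10. Of these 3 calls 1 was kept without the YAP KO pool and none without the WT pool. Nr1d1, the repressor REV-ERB alpha, had 207 in the YAP KO pool and 129.8 in the WT pool, against 604 and 1007 in YAP KO and 2058 and 1808 in WT livers at day 0. The pools were lowest, and at day 0 YAP KO lay below WT (6.9-fold lower, -2.79 ± 0.45, adjusted p = 0.0076; 0.0613 without the WT pool). Dbp, a clock output factor, had 471 in the YAP KO pool and 583 in the WT pool, against 341 and 582 in YAP KO and 2529.8 and 4319 in WT livers at day 0, with a change of 0.07 in YAP KO and -2.47 in WT livers, and was not called over both (-1.20 ± 0.92, adjusted p = 0.488). The labels used here give no hour of harvest, so its part in these values was not tested. Of 22 interferon-stimulated genes 3 fell and none rose, 1 of them kept without the WT pool and none without the YAP KO pool.

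Some of the largest changes lay outside these lists. Adssl1, an adenylosuccinate synthetase of purine metabolism, read 3061 in the YAP KO pool and 2425 in the WT pool, against 85.5 and 88.7 in YAP KO and 94.1 and 61.5 in WT livers at day 0 (4.81 ± 0.32, adjusted p = 5.59e-05). Smpd2, a neutral sphingomyelinase, had 3185 in the YAP KO pool and 2943 in the WT pool, against 187 and 306 in YAP KO and 202 and 169 in WT livers at day 0 (13.6-fold, 3.76 ± 0.25, adjusted p = 5.59e-05). Both were called whichever array was left out. Ikbke, a kinase of innate immune signalling, rose by 4.50 ± 0.63 (adjusted p = 0.00254, 0.068 without the YAP KO pool and 0.0615 without the WT pool). Among the falls, Bhmt, the betaine-dependent enzyme that remethylates homocysteine, had 4306 in the YAP KO pool and 10694 in the WT pool, against 52950.2 and 58372 in YAP KO and 43283 and 46797 in WT livers at day 0. The YAP KO pool was lower than the WT pool and both were far below day 0 (7.36-fold lower, -2.88 ± 0.31, adjusted p = 0.00103). Depp1, a target of FOXO factors, had 507 in the YAP KO pool and 252 in the WT pool, against 7338 and 2736 in YAP KO and 3968 and 5205 in WT livers at day 0 (12.1-fold lower, -3.60 ± 0.38, adjusted p = 0.000985). Cyp4f14, a leukotriene and fatty acid hydroxylase, fell 6.73-fold and Fabp5, a fatty acid binding protein, 6.04-fold. Nox4 (-2.58 ± 0.41, adjusted p = 0.00488), a peroxide-producing oxidase, and Tmem184a (-2.87 ± 0.40, adjusted p = 0.00253) fell to signals of 45.6 (YAP KO) and 58.7 (WT) and of 47.8 (YAP KO) and 42.7 (WT) on the pools.

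Markers of other liver cells moved in few cases, beside 8.92% of all genes called in either direction. In lists this short few calls are expected at that share. No gene was called among 16 Kupffer cell and macrophage, 14 stellate cell, 10 lymphocyte and 3 erythroid markers, and their medians were -0.06, -0.16, -0.25 and -0.23. The summed signal of the Kupffer cell list was 16463 (YAP KO) and 18930.5 (WT) on the pools, against 18826.5 to 21335 at day 0. Of 16 sinusoidal endothelial markers 1 fell, Dnase1l3 (-0.96 ± 0.18, adjusted p = 0.0107), with a median of 0.03 for the list. The call of Dnase1l3 was lost without the YAP KO pool and for the mean of its probe sets. Of 5 measured cholangiocyte markers 1 rose, Prom1, a membrane protein also found on progenitor cells: it had 3464 in the YAP KO pool and 3779.6 in the WT pool, against 306 and 176 in YAP KO and 513 and 142 in WT livers at day 0 (13.5-fold, 3.76 ± 0.43, adjusted p = 0.00134). The other 4 were not called, with Epcam at 0.39 ± 0.38 and Sox9 at 0.27 ± 0.31, and Krt19, Krt7 and Cftr were not measured above the filter. The summed signal of the 5 cholangiocyte markers was 6317 (YAP KO) and 7039 (WT) on the pools, against 2281 to 2870 at day 0. Without Prom1 the sum of the other 4 was 2853 (YAP KO) and 3259 (WT) on the pools, against 2139 to 2564.5 at day 0. Of 8 neutrophil markers 1 rose, the acute phase gene Lcn2 (1.57 ± 0.40, adjusted p = 0.0379), which was lost without either pool, YAP KO day 0 replicate 1 or WT day 0 replicate 2 (adjusted p up to 0.24), while S100a8 was at -0.76 ± 0.51. The part of these cells in the results was not tested.

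Whether the genotypes differed in their day 1 change was tested for each gene with all 12 arrays, from 1 pool each. No gene of 14102 passed limma's test (smallest adjusted p = 0.0551), and 948 (6.72%) had an unadjusted p under 0.05, 72 of them among the 1258 called. With a lone pool per genotype, a gene that was not called is not shown to respond alike. Each genotype's own day 1 change was also taken from the fit to 12 arrays, where the lone pool is assumed to vary like the replicated groups. In these, 844 genes were called in YAP KO livers (3.14% higher and 2.84% lower) and 1023 in WT livers (3.97% and 3.28%), and 474 were called in both, all in the same direction. The shared genes are 56.2% of the YAP KO list and 46.3% of the WT list, and the overlap was not tested. In E2f8, an atypical E2F factor that represses transcription, the pools had 254 (YAP KO) and 926 (WT), against 409 and 428 (YAP KO) and 88.4 and 100.3 (WT) at day 0. The change was -0.69 in YAP KO and 3.10 in WT livers (difference -3.78 ± 0.54, adjusted p = 0.0551), and at day 0 the YAP KO signals were already the higher ones. Unc5c, a netrin receptor, had 1036 in the YAP KO pool and 184 in the WT pool, against 943 and 896 in YAP KO and 1195 and 998 in WT livers at day 0, so that the WT pool alone stood low (difference 2.64 ± 0.37). Khsrp, an RNA-binding protein of mRNA decay, had 123 in the YAP KO pool and 1154 in the WT pool, against 797 and 851 in YAP KO and 894 and 692 in WT livers at day 0, so that the YAP KO pool alone stood low (difference -3.14 ± 0.44). E2f8, Unc5c and Khsrp were named because they have some of the smallest p-values for this difference.

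Day 2 values, means of 3 arrays per genotype minus day 0, are set beside those of day 1 for the same genes. Both days use the same day 0 arrays, so no correlation is given and the change between day 1 and day 2 was not tested. The induced drug metabolism genes were high at both days: Cyp2b10 had log2 changes of 4.72 in YAP KO and 4.92 in WT livers at day 1 and of 4.38 in YAP KO and 4.94 in WT livers at day 2. Gadd45b likewise had 3.02 in YAP KO and 3.29 in WT livers at day 1 and 3.09 in YAP KO and 2.86 in WT livers at day 2. Tnfrsf12a had 527 in the YAP KO pool and 765 in the WT pool, against 129.5 and 70.3 in YAP KO and 122 and 132 in WT livers at day 0, with log2 changes of 2.28 in YAP KO and 2.45 in WT livers at day 1 and of 0.57 in YAP KO and 4.32 in WT livers at day 2, where the signals of the genotypes did not overlap. The YAP KO day 2 arrays stood apart from the WT day 2 arrays: the mean Cre spike-in signal was 14412 to 18045 on YAP KO and 37011 to 39851 on WT arrays, and the mean log2(signal + 16) of the 200 highest probe sets was 14.66 to 14.90 on YAP KO and 15.21 to 15.35 on WT arrays. The list of genes that checks the tissue had a day 2 median of -0.72 in YAP KO and 0.21 in WT livers. The part of this in the day 2 values was not tested. The list medians of CAR targets were 0.88 in YAP KO and 0.84 in WT livers at day 1, and 0.43 and 0.98 at day 2. Among chaperones, Hsp90aa1 and Hspa8 lay nearer to day 0 at day 2. Hsp90aa1 had 2.40 in YAP KO and 2.78 in WT livers at day 1 and 0.84 in YAP KO and 1.51 in WT livers at day 2, and Hspa8 had 1.49 in YAP KO and 1.29 in WT livers at day 1 and -0.01 in YAP KO and 0.17 in WT livers at day 2. Hspa1b differed from these, with 2.62 in YAP KO and 2.97 in WT livers at day 1 and 2.63 in YAP KO and 0.11 in WT livers at day 2. With 1 day 2 array left out, the WT value of Hspa1b ran from -0.18 to 0.26, and those of Hspa8 from -0.11 to 0.11 in YAP KO and from -0.09 to 0.43 in WT livers.

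The lower genes also took more than 1 course. Rdh16 stayed low, with -4.08 in YAP KO and -3.81 in WT livers at day 1 and -3.97 in YAP KO and -4.51 in WT livers at day 2, and so did Serpina3n, with -2.50 in YAP KO and -2.59 in WT livers and then -2.45 in YAP KO and -1.93 in WT livers. Acsl6, an acyl-CoA synthetase, had -3.06 in YAP KO and -2.88 in WT livers at day 1 and -0.25 in YAP KO and -0.17 in WT livers at day 2. Its YAP KO signals at day 2 were 658.5, 913.2 and 102.6, and without the low array the YAP KO value was 0.66. Nr1d1 had -1.84 in YAP KO and -3.74 in WT livers at day 1 and 0.35 in YAP KO and -0.19 in WT livers at day 2, so that its low signals were those of the day 1 pools. Mt1 lay between, with -3.65 in YAP KO and -4.68 in WT livers at day 1 and -2.71 in YAP KO and -1.28 in WT livers at day 2. The G2/M list median was 0.31 in YAP KO and 1.37 in WT livers at day 1, and 0.60 and 1.43 at day 2, while that of DNA replication was 0.75 and 0.87 at day 1, and 0.58 and 0.84 at day 2.

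**Figure D5:**
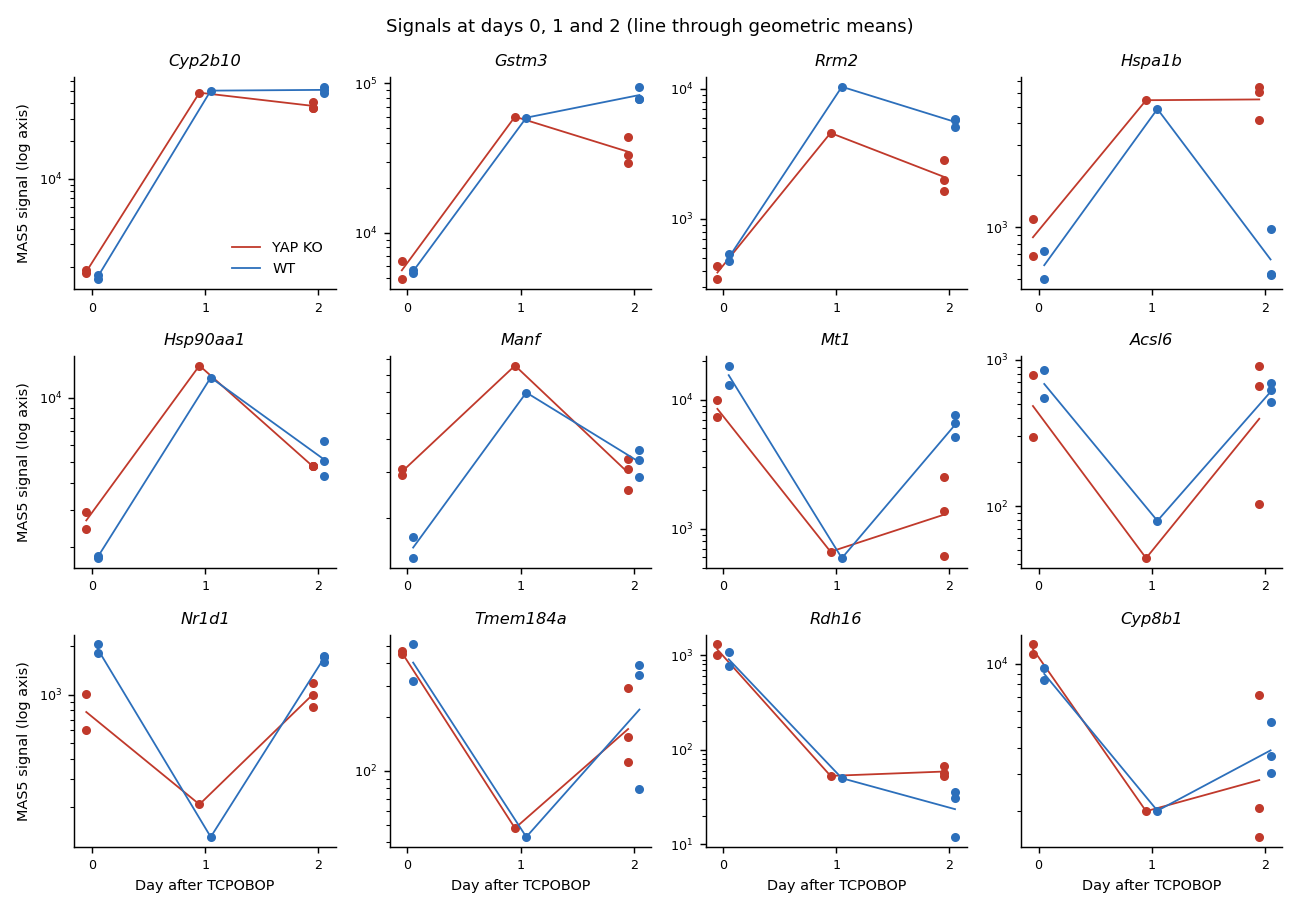
MAS5 signal (log axis) of 12 genes on every array at days 0, 1 and 2 after TCPOBOP, YAP KO in red and WT in blue, with lines through the geometric means; day 1 is 1 pool per genotype. Cyp2b10 stays high at day 2, Hsp90aa1 and Manf peak at day 1, Acsl6, Nr1d1 and Tmem184a are lowest at day 1, and Rdh16 stays low.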

How the data were processed

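Total RNA of whole liver was hybridized to single-colour oligonucleotide arrays. The deposited values are signal intensities, which the authors computed with MAS5 (version not stated), per the submitters' processing notes. Each array had been scaled to a common level: the mean between the 2nd and 98th percentile is 500.0 on all 12. A genome build is not given in the sources used here. Arrays have no read depth, and their number limits the precision.

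Values were used as log2(intensity + 16) with no further normalization. There were 45101 probe sets: 34945 with 1 gene name, 932 with several, 9160 without, and 64 controls. Genes of a probe set above its array's median on at least 2 arrays were kept, each by its probe set with the highest mean, which left 14102 of 18193. The test was limma 3.58.1 in R 4.3.3 (trend and robust, 4 residual degrees of freedom for 6 arrays), two-sided, and p-values were adjusted by Benjamini-Hochberg across the whole table. The genotype difference used 6 group means over 12 arrays (6 residual degrees of freedom), where a lone pool is assumed to vary like the replicated groups. Labels of 2 among 6 arrays can be arranged in 15 ways, so an exact permutation test of 1 gene cannot go below a one-sided p of 0.0667. The labels do not say that replicates are separate animals, so p-values measure the spread between these arrays. The fit was also run on simulated data with independent arrays and no genotype difference at day 0. That run cannot show how the fit behaves where pools or genotypes differ in spread or level. Tables came from pandas 2.3.3 and numpy 2.4.6 and plots from matplotlib 3.10.9, run in Python 3.11.15.

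Members and lists were chosen with earlier results of these data known. Named genes come from a panel, the 20 largest called rises and falls, no more than 6 called members per list and the 10 genes with the smallest p for the genotype difference; the text gives a subset. Fmo5, Cyp2c29, Cyp3a13, Cyp2c38, Mcm3, Mcm5, Mcm7, Mcm10, Top2a, Psmb7, Hspa8 and the genes given with a log2 change only in the lists were added after their values were seen, as were the printed start regions and motifs. Por and Ccnb1 are not analysed here. Alternatives were quantile, median and cyclic loess normalization, pseudocounts of 1 and 64, no filter or 6 arrays, the mean of probe sets, eBayes without trend and robust, genotype as a covariate, 12 arrays, array weights, other thresholds and leaving out each array; each genotype alone was added after the values were seen.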

Additional observations from a re-analysis of the deposited data

Results flagged for a closer look

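In 5 of the 130 genes whose values were tracked, 1 of the 4 day 0 arrays stood apart from the other 3 by Dixon's criterion. Chance meets it in about 1 of 20 such groups, so 5 of 130 is no more than chance would give. YAP KO day 0 replicate 2 was low for Tnfrsf12a (70.3) and Cyp4f14 (7259), YAP KO day 0 replicate 1 for Mcm3 (87.9), WT day 0 replicate 2 for Hsph1 (291) and WT day 0 replicate 1 for Fabp5 (4722). All 5 low values still lay on the day 0 side of both pools.

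In 4 of the 130 genes whose values were tracked, each pool lay beyond both day 0 arrays of its own genotype, in opposite directions in the 2 genotypes. The YAP KO minus WT difference of the day 1 change was -3.78 for E2f8 (adjusted p = 0.0551), 2.64 for Unc5c (adjusted p = 0.0551), -3.14 for Khsrp (adjusted p = 0.0551) and -2.57 for G6pc (adjusted p = 0.261), each on the log2 scale by limma, and none passed the threshold. Each rests on 1 pool per genotype.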

How the results depend on the processing

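The count of 1258 called genes was 571 for eBayes without trend and robust, 2142 for 6 group means on 12 arrays, 423 at an adjusted p under 0.01 and 611 with a change of at least 1 on the log2 scale. Leaving out 1 array gave 393 (without the YAP KO pool) to 1696 (without YAP KO day 0 replicate 2), with 446 without the WT pool and 755 and 760 without WT day 0 replicate 1 or 2. Without a pool the lone pool left is assumed to vary like the day 0 arrays. The other alternatives, normalizations included, gave 844 to 1659. Of the 116 called genes among the 130 whose values were tracked, 66 kept their call under all alternatives that use both genotypes; 41 lost it without the WT pool and 37 without the YAP KO pool. The fit to 12 arrays called 7.42% of all genes higher and 7.77% lower, against 4.62% and 4.3% in the main test. A larger count there is thus not by itself a trait of a list. In that fit 9 of 28 G1/S regulators and 22 of 53 G2/M genes rose, as did 9 of 26 translation factors. Of 19 tubulin and actin genes 10 rose. Falls were seen for 6 of 23 transporter, 5 of 23 receptor, 8 of 21 cholesterol and 9 of 26 glucose genes. They were also seen for 9 of 28 acute phase, 6 of 22 interferon and 6 of 20 clock genes. The growth hormone axis had 5 of 20 and hepatocyte identity 5 of 27. The genotype difference gave 7 calls with a pseudocount of 1 and between 0 and 4 when 1 day 0 array was left out, and 0 under the other alternatives, with 739 to 1425 genes at an unadjusted p under 0.05. Directions reversed for some genes that were not called: when 1 array was left out, the values ran from -0.946 to 0.178 for Yap1 and from -2.561 to 0.512 for Khsrp (highest without the YAP KO pool) and from -2.348 to 0.048 for Unc5c (highest without the WT pool), and within 1 genotype they were E2f8 (-0.687), Dbp (0.075) and Unc5c (0.170) in YAP KO and G6pc (0.780) and Khsrp (0.544) in WT livers. No paired analysis was possible because the day 1 pools carry no replicate number shared with the day 0 arrays. The causes of these shifts were not tested. Signals near the bottom of the scale have wide errors and a fold that the pseudocount limits.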
